A study of Mus musculus with 15 samples.

Results

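The open chromatin of activated wild-type mouse CD4+ T cells was described from 55442 peaks called in 4 ATAC-seq libraries. These are the 4 libraries labelled wild type (IRF5+/+) and 72 h activated, of 15 libraries in the series. The other 11 libraries are untreated wild-type cells (4), untreated IRF5-/- cells (3) and 72 h activated IRF5-/- cells (4), and they were used here only to say whether a region was also called elsewhere. IRF5, interferon regulatory factor 5, is a transcription factor, and the 4 libraries described carry it intact. The cells were CD4+ T cells activated in vitro. The agents used for activation and the strain, age and sex of the mice are not given in the sources used here. The labels call the libraries biological replicates but do not say whether they came from separate mice or separate cultures, so the spread over the 4 may be partly technical.

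ATAC-seq uses the Tn5 transposase, which inserts sequencing adapters where DNA is not wrapped in nucleosomes, so a pile of fragments marks a promoter, an enhancer or another site held open. CD4+ T cells are the helper cells of adaptive immunity. On stimulation through their antigen receptor they grow, divide, raise glucose, amino acid and nucleotide metabolism, and can become effector cells that make cytokines such as interferon gamma, interleukin 4 or interleukin 17. Opening of the promoter and nearby enhancers of a gene is commonly a condition for its transcription but is not a measure of it, and no RNA is reported here.

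Promoters of 7 genes are printed first, as examples chosen after the values were seen. They begin with CpG-rich promoters of metabolic genes and CpG-poor promoters of effector genes with a peak at the start. CpG-poor promoters with no peak at the start follow. The order is not one of peak strength. CpG is a C followed by a G, and it is common in promoters of genes used by many cells. Each sequence is the 250 bases before the start site in RefSeq, assembly GRCm38.p6 (the assembly behind mm10), written 5′ to 3′ on the strand of the gene. Capitals mark each CpG.
Impdh2 (chr9:108560186-108560435, + strand): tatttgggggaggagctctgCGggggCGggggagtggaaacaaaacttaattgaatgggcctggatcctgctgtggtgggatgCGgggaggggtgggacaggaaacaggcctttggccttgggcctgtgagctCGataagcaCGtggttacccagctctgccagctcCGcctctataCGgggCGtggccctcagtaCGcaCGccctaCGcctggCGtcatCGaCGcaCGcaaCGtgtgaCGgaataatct
Pgk1 (chrX:106186850-106187099, + strand): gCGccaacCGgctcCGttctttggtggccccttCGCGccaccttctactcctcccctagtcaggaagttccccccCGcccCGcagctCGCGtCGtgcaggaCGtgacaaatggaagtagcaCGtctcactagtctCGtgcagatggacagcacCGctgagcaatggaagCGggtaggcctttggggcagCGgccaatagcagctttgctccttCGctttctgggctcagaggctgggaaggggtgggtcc
Ifng (chr10:118440796-118441045, + strand): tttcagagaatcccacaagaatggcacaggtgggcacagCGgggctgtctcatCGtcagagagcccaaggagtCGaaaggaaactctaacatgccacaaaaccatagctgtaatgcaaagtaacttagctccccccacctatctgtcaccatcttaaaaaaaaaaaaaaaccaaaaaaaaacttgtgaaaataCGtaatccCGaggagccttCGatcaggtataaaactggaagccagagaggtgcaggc
Il2 (chr3:37125955-37126204, - strand): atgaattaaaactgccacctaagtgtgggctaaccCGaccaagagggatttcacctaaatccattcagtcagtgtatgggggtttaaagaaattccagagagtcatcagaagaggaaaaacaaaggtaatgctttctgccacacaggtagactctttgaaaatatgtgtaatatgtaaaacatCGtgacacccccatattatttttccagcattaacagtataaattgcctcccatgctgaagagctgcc
Gzmb (chr14:56262335-56262584, - strand): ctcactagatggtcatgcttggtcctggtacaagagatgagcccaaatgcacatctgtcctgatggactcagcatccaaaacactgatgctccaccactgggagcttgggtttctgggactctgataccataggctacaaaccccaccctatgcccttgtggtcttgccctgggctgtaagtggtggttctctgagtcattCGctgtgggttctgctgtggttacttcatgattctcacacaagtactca
Il17a (chr1:20730655-20730904, + strand): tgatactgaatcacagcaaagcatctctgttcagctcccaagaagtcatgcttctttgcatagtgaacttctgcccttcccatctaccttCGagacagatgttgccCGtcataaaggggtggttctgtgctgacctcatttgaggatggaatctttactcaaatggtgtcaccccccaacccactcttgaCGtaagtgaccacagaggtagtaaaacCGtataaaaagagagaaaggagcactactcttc
Krt5 (chr15:101712906-101713155, - strand): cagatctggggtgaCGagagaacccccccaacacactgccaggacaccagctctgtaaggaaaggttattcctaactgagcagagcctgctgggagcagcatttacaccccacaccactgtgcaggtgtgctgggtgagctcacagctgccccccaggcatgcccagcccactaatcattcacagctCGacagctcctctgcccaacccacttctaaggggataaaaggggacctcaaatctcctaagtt

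Impdh2, the enzyme that commits purine synthesis to guanine nucleotides, and Pgk1, a glycolytic kinase, each had 17 CpG in the printed bases. Ifng, the gene of interferon gamma, had 6, Il17a, the gene of interleukin 17A, had 4, Il2, the gene of the T cell growth factor interleukin 2, had 2, Krt5, a keratin of basal epithelium, had 2, and Gzmb, a protease of cytotoxic granules, had 1. The starts of Impdh2, Pgk1, Ifng and Gzmb each lay inside a final peak called in all 4 libraries, at chr9:108560135-108561064, chrX:106186492-106188098, chr10:118440603-118441750 and chr14:56261714-56262991. Over the start of Il2 lay a peak at chr3:37125640-37126322 that was called in 3 of the 4 libraries, and no final peak lay within 1 kb of the starts of Il17a and Krt5.

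The 4 libraries held 24668612, 27557588, 26120321 and 25718093 fragments after filtering, and gave 67248, 68696, 69086 and 59243 peaks. Library 4 stood apart: its median fold enrichment was 5.57 against 6.31 to 6.38 in the other 3, and its rate of redundant fragments was 0.17 against 0.15. Fold enrichment is the authors' value for each peak, the fragment coverage at its summit over the local background, and it is used here only within a list. The final list was a subset of 59.9% of the 92563 peaks called on the 4 libraries merged. Of the 55442 final peaks, 45635 (82.3%) were called in all 4 libraries and 9728 (17.5%) in 3. Library 4 was the one lacking in 47.7% of the peaks called in 3, and without it 90.7% of final peaks were called in all of the remaining libraries. The peaks called in all 4 libraries had a median fold enrichment of 8.09, against 4.83 for those called in 3, so disagreement between libraries sat among the weaker peaks. Of the 37121 merged peaks outside the final list, 99.4% were called in 2 libraries or fewer, and their median fold enrichment was 3.12. Of the final peaks, 99.9% were called in at least 3 libraries, so their agreement cannot be separated from how that list was selected. In the whole merged list 49.3% of peaks were called in all 4 libraries. Across the peaks called in all 4, the fold enrichment of any pair of libraries had a Spearman rho of 0.856 to 0.889 (n = 45635 peaks, a description across peaks of libraries that share genome and peak caller).

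Final peaks covered 49.3 Mb. Their median width was 787 bp, with quartiles of 557 and 1127 bp and a range of 191 to 3864 bp. Within the library lists, which were not joined across libraries, the median width was 416, 437, 458 and 507 bp in libraries 1 to 4. Library 4 thus had the fewest and widest peaks, and its fragments were also the longest, at 168 bp against 148 to 159 bp. The part of fragment length in peak width was not tested.

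Most peaks lay away from the ends of genes. Of the final peaks, 13263 (23.9%) lay within 1 kb of either end of a protein-coding gene, called a boundary peak from here on. In the 4 library lists that share was 21.6% ± 0.987 (SD, n = 4). A further 23501 (42.4%) lay inside a gene more than 1 kb from its ends. Outside genes, 5560 peaks (10.03%) were 1 to 10 kb away, 7595 (13.7%) 10 to 50 kb, 2478 (4.47%) 50 to 100 kb and 3045 (5.49%) over 100 kb from the nearest protein-coding gene. Boundary peaks were wider, with a median of 1209 bp against 664 to 702 bp in the 5 other classes, as the plot of width by position shows. They were also stronger, with a median fold enrichment of 9.004 against 6.71 to 7.30, and 94.0% of them were called in all 4 libraries against 77.9% to 79.0% of the other classes.

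**Figure D1:**
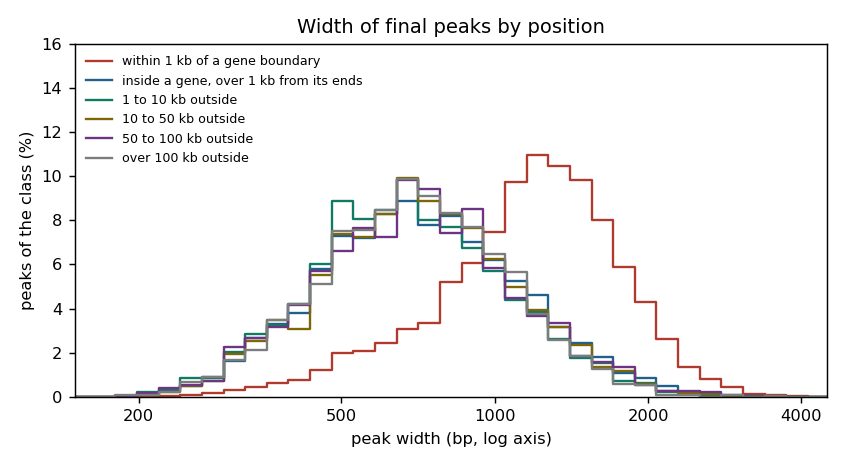
Width of the final peaks (x axis, bp, log axis) as a percent of the peaks in each class of position (y axis), 1 line per class. The line of boundary peaks lies to the right of the 5 other lines, which overlap, with medians of 1209 bp against 664 to 702 bp.

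Most wide peaks lay at gene ends. Of the 1356 peaks over 2000 bp, 69.0% were boundary peaks, against 5.93% of peaks under 500 bp. Ubtf, a factor of ribosomal RNA transcription, had the widest peak at 3864 bp, followed by Hivep2, at 3806 bp, and Jade2, at 3789 bp. Those of Ubtf and Hivep2 lay inside the gene, over 1 kb from its ends, and held an annotated start. A peak of 3786 bp reached the ends of H2-DMa and held the start of Brd2, a reader of acetylated histones. Nr4a2, a nuclear receptor gene induced early after antigen receptor signals, had one of 3666 bp, also inside the gene and over 1 kb from its ends. Cdk6, a kinase that drives entry into the cell cycle, had one of 3636 bp. All of these were called in all 4 libraries and in all 11 others. Their fold enrichments were low, from 3.35 for Ubtf to 5.85 for Nr4a2, in a score that divides by a background taken over up to 10000 bp around the peak, which the wide peak itself enters. The part of that background in the score was not tested.

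Openness at gene ends was mostly at the start. RefSeq promoters gave a start for 17491 (79.9%) of the 21883 protein-coding genes. Among the 10231 genes over 4 kb long with a start at one end, 65.6% had a final peak at the start end, 9.87% at the other end and 2.24% at the other end only. Summits of the peaks gathered at the start itself: the 100 bp just upstream held 21.4 summits per 100 genes and the 100 bp just downstream 17.8, against 0.362 in the bin farthest upstream. Peaks that held a start numbered 9667 (17.4% of final peaks). They had a median width of 1279 bp against 707 bp for all other peaks, a median fold enrichment of 9.69 against 6.91, and 97.2% were called in all 4 libraries against 79.2%.

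**Figure D2:**
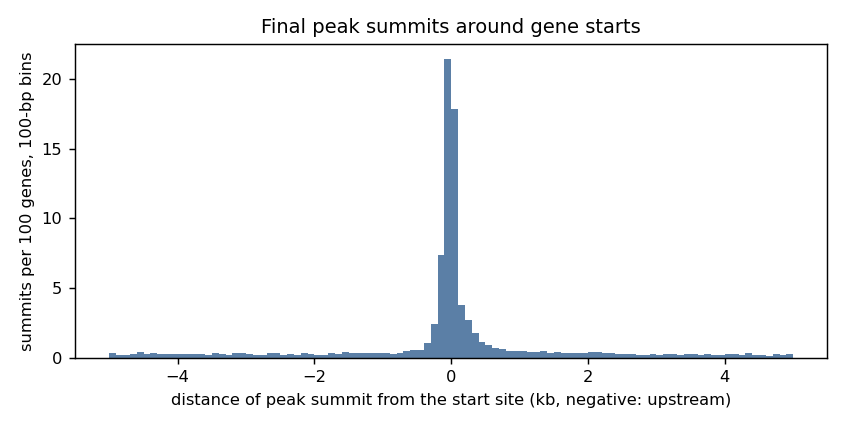
Number of final peak summits per 100 genes (y axis) in bins of 100 bp around the start site (x axis, kb, negative values upstream), for the 10231 genes over 4 kb with a start at one end. Summits gather in the bins beside the start, at 21.4 just upstream and 17.8 just downstream.

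A gene was counted as open at a boundary if a final peak called in all 4 libraries lay within 1 kb of either end, and as silent if no peak of the final, merged or library lists lay within the gene or 10 kb around it. Of the 21883 protein-coding genes, 12821 (58.6%) were open at a boundary and 4009 (18.3%) were silent. Another 3448 (15.8%) had final peaks in that window but none at a boundary, 470 had a boundary peak that was not called in all 4 libraries, and 1135 had peaks only in the library or merged lists. Among genes with an annotated start, 59.3% had a start open in all 4 libraries, meaning a final peak within 1 kb of it that every library called. The RefSeq bounds of some genes reach past their usual start, as for Gata3, so the start is given beside the boundary below. Lack of a peak does not establish closed chromatin: the libraries' depth and the peak caller's threshold set what could be called.

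Sensory receptor genes made up a large share of the silent genes, 21.9% of them olfactory and 7.83% vomeronasal. Of 1106 olfactory receptor genes 879 (79.5%) were silent and 17 were open, and of 353 vomeronasal receptor genes, which detect pheromones, 314 (89.0%) were silent. Defensin genes, whose peptides kill microbes at epithelia, were silent in 55 of 73 cases. Reads from near-identical copies are hard to place in these families, so silence there is uncertain. By contrast 76 of 80 genes of cytosolic ribosomal proteins were open, against 58.6% of all genes. Of all silent genes, 93.2% also had no peak in their window in any of the other 11 libraries.

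Open starts were CpG-rich. Promoters from 250 bases before to 50 after the start had a median of 22 CpG where the start lay in a final peak called in all 4 libraries (n = 9600 genes), 13 over all genes (n = 17491) and 2 in silent genes (n = 3245). In the strongest 10% of starts in such a peak (n = 960) the median was 19, so it was not higher there. The share of starts inside such a peak was 2.22% with 0 to 1 CpG, 6.503% with 2 to 3, 21.5% with 4 to 7, 59.5% with 8 to 14 and 89.4% with 15 or more. Median GC content was 62.0% for starts in a peak and 43.0% for silent genes. Short motifs, searched on both strands, followed the same division. CCGGAAG, the core bound by ETS factors, was in 19.3% of promoters with the start in a peak, 30.2% of the strongest 10% of those, 2.31% of silent genes and 11.9% of all. GGGCGG, the GC box bound by Sp factors, was in 69.4% of promoters with the start in a peak, 7.37% of silent genes and 46.3% of all. TATAAA, the TATA box, went the other way, at 6.09%, 30.3% and 13.3%, as did TGANTCA, the AP-1 site, at 4.27%, 12.1% and 7.03%. In the strongest 10% of promoters with the start in a peak, GGGCGG was in 61.4%, TATAAA in 6.46% and TGANTCA in 4.79%. CCGGAAG and GGGCGG hold a CpG, and TATAAA and TGANTCA do not. The shares of these motifs follow base composition too, and a match is a description of the letters only.

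In the printed bases, TATAAA was found for Ifng, Il2 and Il17a, and TGANTCA for Gzmb and Il17a. GGGCGG was found for Impdh2 and Pgk1. CCGGAAG was found in none of the 7.

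T cell genes were often open without many CpG. Of all 6683 genes with 7 or fewer CpG in the promoter, 689 (10.3%) had the start in a peak called in all 4 libraries. For 7 lists pooled (T cell effector cytokines, cytotoxic effectors, lineage and effector transcription factors, cytokine receptors, chemokine receptors and homing, costimulatory and inhibitory receptors, and T cell identity) it was 38 of 69 such genes (55.1%). The lists in the pool differed, with 0 of 2 transcription factors, 6 of 18 effector cytokines and 4 of 7 cytotoxic genes. It was 8 of 12 cytokine receptors, 6 of 12 chemokine receptors and homing molecules, 9 of 12 costimulatory and inhibitory receptors, and 5 of 6 identity genes. Chemokines, outside the pool, had 2 of 7. For markers of other cell types it was 1 of 49 (2.04%). With 8 or more CpG the shares were 82.4% of all 10808 genes, 42 of 55 T cell genes (76.4%), 80 of 81 metabolic genes (98.8%) and 8 of 21 markers of other cell types (38.1%). The division at 7 CpG and the pooling of lists were chosen after the values were seen. Genes with 3 or fewer CpG and the start in such a peak included Cd3d (1) and Cd247 (3), subunits of the T cell receptor complex, Il7r (1), Il2ra (3) and Il2rg (3), receptor chains for interleukins 7 and 2, Gzmb (2), Cxcr6 (3) and Havcr2 (3), the inhibitory receptor TIM-3.

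**Figure D3:**
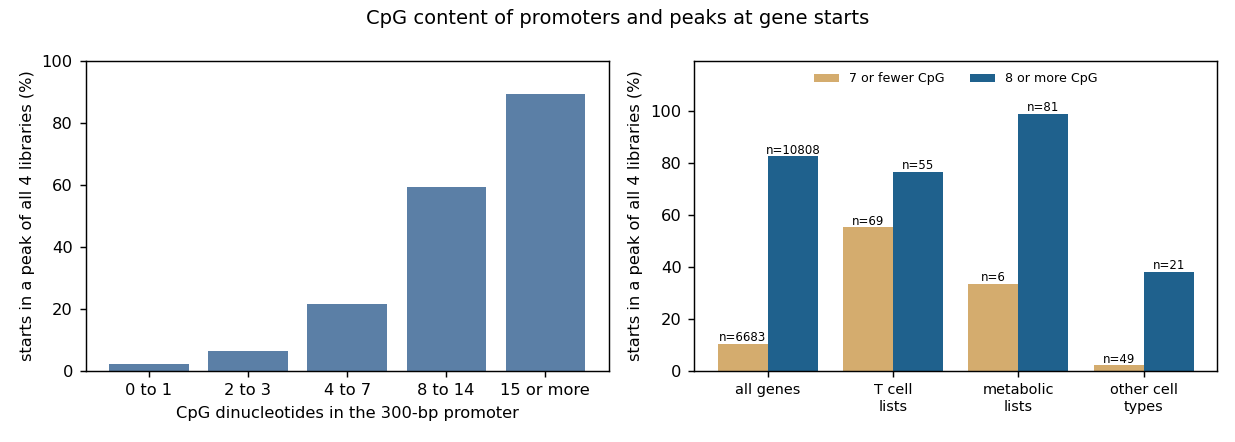
Left, percent of gene starts inside a final peak called in all 4 libraries (y axis) by the number of CpG in the 300-bp promoter (x axis), from 2.22% to 89.4%. Right, the same percent for promoters with 7 or fewer and 8 or more CpG, for all genes and for pooled lists, with the number of genes over each bar; among CpG-poor promoters it was 10.3% of all genes, 55.1% of T cell genes and 2.04% of markers of other cell types.

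The labelled cell type was checked against its markers. Of 18 T cell identity genes 17 (94.4%) were open at a boundary, read beside the 58.6% of all genes, and all 12 with an annotated start had an open start. Thy1, the remaining gene, had a boundary peak in 3 libraries and lacked it in library 3. Cd4 was open, and its strongest boundary peak lay at the 54.2, 52.1, 39.1 and 51.9 percentile of fold enrichment in libraries 1 to 4. Percentiles here are ranks of a peak by fold enrichment among all peaks of its own library, 100 being the highest. They depend on the local background as well as on coverage. In the final list the strongest boundary peaks of the T cell identity genes had a median percentile of 37.4, below the middle. Boundary peaks of all genes had a median fold enrichment of 9.004, above the 7.31 of all final peaks.

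Of the 91 markers of 8 other cell types, 34 (37.4%) were open at a boundary, against 58.6% of all genes, and 14 of the 70 with a start had an open start, a lower share than the 59.3% of all genes. Another 17 were silent, a share near the 18.3% of all genes. Of 12 B cell markers 11 had a final peak in the window and 4 were open at a boundary, and Ms4a1 was the one without a final peak. Also without a final peak were Ncr1, Klra1, Klra8 and Klrb1c, of 11 CD8 T and natural killer genes. The same held for Csf1r, Lyz2, Adgre1, S100a8, S100a9 and Siglech, of 18 myeloid and dendritic genes. Over all genes 23.5% had no final peak in the window. In the myeloid and dendritic list 7 of 18 genes were nevertheless open at a boundary, among them Xcr1, Clec9a, Spi1, Cebpa, Cd14 and Zbtb46. Of the 12 genes of that list with an annotated start, Cebpa had an open start and the other 11 did not. Cd8a, the coreceptor of CD8 T cells, had 1 final peak in its window and none at a boundary, whereas Cd8b1 was open, with percentiles of 30.1, 53.5, 47.3 and 32.3. Cd79b and Pax5 of B cells had final peaks in the window and none at a boundary. Some markers were open with strong peaks: Klrk1, the receptor NKG2D, at the 87.6 percentile of the final list, Cr2, a complement receptor, at 97.0, and Klf1, a red cell factor, at 92.5, each with its start open too. In Ckm and Apoa1 the strong boundary peak, at 95.8 and 88.9, was not at the annotated start. In a bulk library a few cells of another type and a weakly open site in all cells cannot be told apart.

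**Figure D4:**
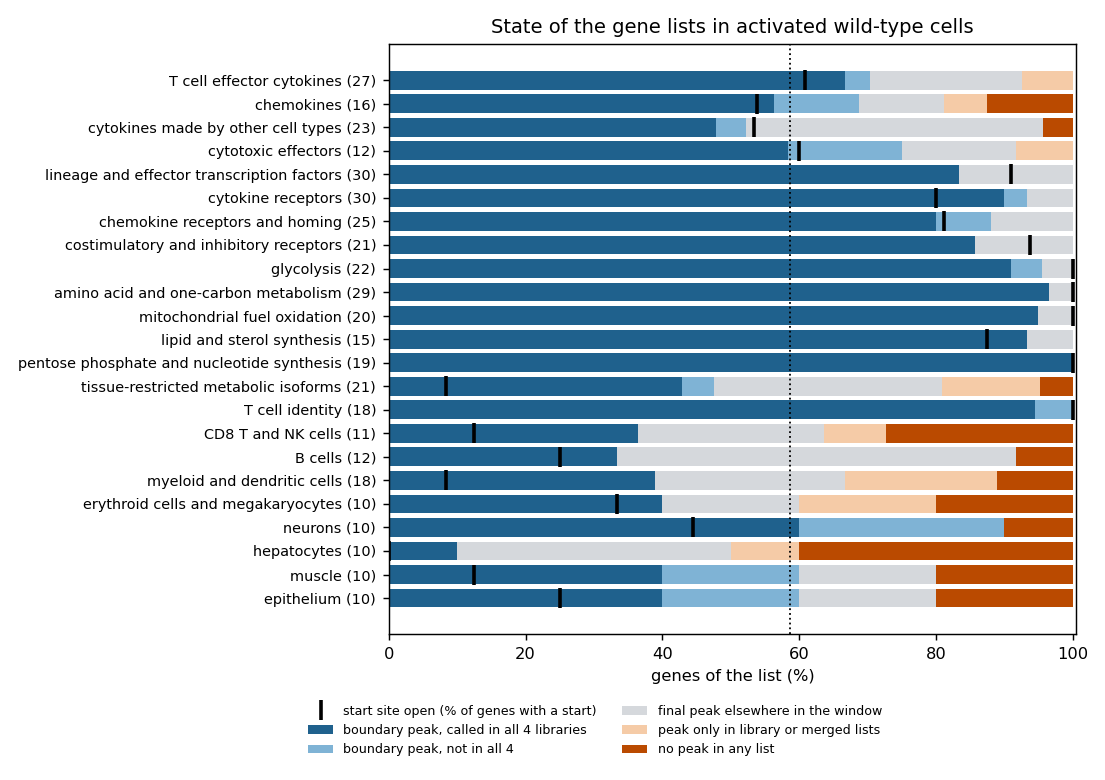
State of each gene list (rows, with the number of genes) as stacked percents of its genes (x axis): boundary peak called in all 4 libraries, boundary peak not in all 4, final peak elsewhere in the window, peak only in library or merged lists, and no peak in any list. Black ticks give the percent of genes with an annotated start whose start was open in all 4, and the dotted line the 58.6% of all genes open at a boundary; T cell identity and the main metabolic lists lie beyond it and hepatocyte markers at its far left.

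Effector cytokine loci were split. Of 27 genes, 18 (66.7%) were open at a boundary, 1 had a boundary peak in 3 libraries, 6 had final peaks only elsewhere in the window, 2 had only library or merged peaks, and none was silent. Over all genes 58.6% were open at a boundary. Of the 23 listed genes with a start, 14 (60.9%) had an open start, near the 59.3% of all genes. The open genes covered several helper programmes: Ifng, Tnf, Lta and Ltb of type 1 and lymphotoxin responses, Il4 and Il13 of type 2 responses, Il21 of B cell help, Cd40lg, and the death ligands Fasl and Tnfsf10. Il13 was open through a boundary peak that was not at its start. By library, 18, 21, 16 and 18 of the 27 had a boundary peak (66.7%, 77.8%, 59.3% and 66.7%), against 60.4% to 62.1% of all genes. The library peaks that overlapped the final peak did not themselves reach within 1 kb of Tnf in library 3 or of Cd40lg in library 4. For Lif they did so in no library. The loci without a boundary peak in the final list were those of Il3, Il9, Il10, Il17a, Il17f and Il22, with 1 to 3 final peaks nearby, and of Csf2 and Il5, with none. In the library lists a boundary peak was called for Il3 and Il5 in library 2 and for Csf2 in libraries 2 and 4.

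The strongest of these peaks was at Tnfsf10, the ligand TRAIL, with percentiles of 92.9, 92.8, 95.4 and 97.1 in libraries 1 to 4. Fasl lay at 84.2, 85.2, 84.9 and 89.7. These ligands were high in every library. Il24, an interleukin 10 family cytokine, lay at 81.9, 88.7, 79.5 and 75.7, and Areg, an epidermal growth factor receptor ligand of tissue repair, at 81.8, 75.6, 85.8 and 80.0. Below them came Tnfsf11, the osteoclast factor RANKL, at 72.7, 69.2, 60.7 and 73.8. Tnfsf14, the ligand LIGHT, lay at 60.9, 77.8, 58.2 and 62.5, with library 2 above the rest.

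Ifng lay near the middle of the range, at 60.2, 71.6, 72.6 and 64.8, with a final-list fold enrichment of 7.41 and 4 final peaks in its window. Il4 was lower, at 41.8, 49.1, 34.1 and 34.1, and Il13 near the bottom of every library, at 12.9, 3.93, 5.14 and 7.58. Tnf, at 51.2, 45.4, 41.6 and 24.7, and Il21, at 47.9, 65.9, 38.1 and 44.9, overlapped Il4 in range. The peak over the Il2 start lay at 33.6, 38.5 and 19.4 in libraries 1, 2 and 4 and was not called in library 3, with a fold enrichment of 4.57 in the final list. Tgfb1, a suppressive cytokine, had the boundary peak of lowest fold enrichment among the open genes, at 6.31, 1.34, 0.560 and 4.91. Coverage at its summit was 71, 69, 58 and 66 fragments in libraries 1 to 4, against 43, 63, 62 and 41 for Ifng. The order by fold enrichment was thus not the order by coverage. The median over the list was the 30.6 percentile of the final list.

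**Figure D5:**
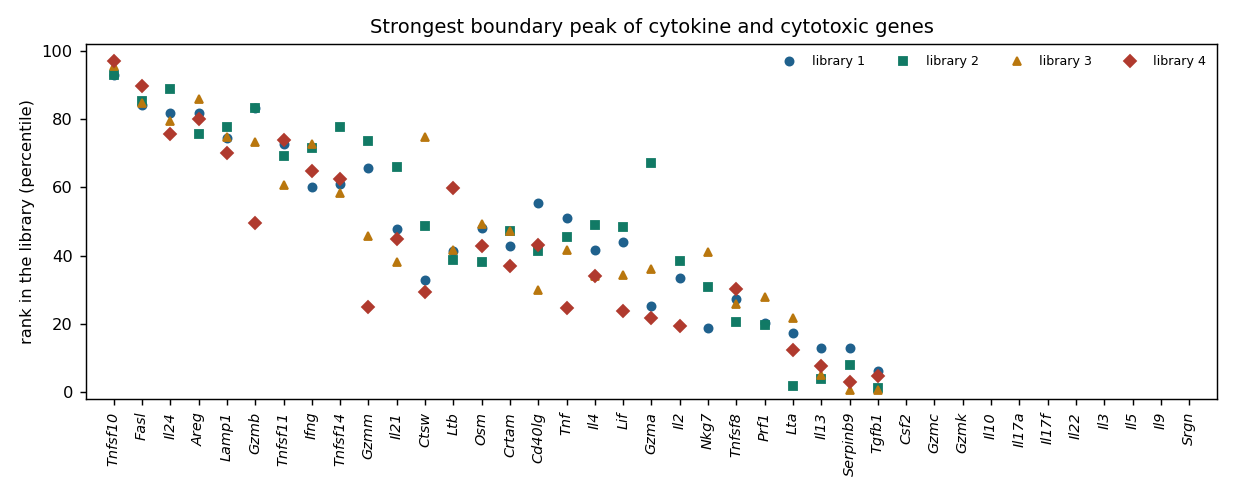
Rank of the strongest boundary peak (y axis, percentile of fold enrichment within each library, 100 the strongest) of each effector cytokine and cytotoxic gene (x axis), 1 symbol per library, ordered by the mean rank. Tnfsf10 and Fasl lie above 84 in all 4 libraries, library 4 is the lowest for Gzmb and Gzmm, and genes at the right without symbols had no boundary peak in the final list.

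Boundary peaks of cytotoxic genes differed between libraries, as did those of effector cytokines. Of 12, 7 (58.3%) were open, near the 58.6% of all genes: Gzma, Gzmb and Gzmm, which are granule proteases, Ctsw, Lamp1, Serpinb9 and Crtam. A boundary peak was called for 10 of the 12 in each of libraries 1 to 3 and for 7 in library 4. Library 4 also called fewer of all final peaks, 91.5% against 96.5% to 97.4% in libraries 1 to 3. Prf1, the pore-forming protein perforin, and Nkg7, a granule membrane protein, had boundary peaks in libraries 1 to 3, at percentiles of 20.2, 19.6 and 28.0 and of 18.8, 30.8 and 41.1, and none in library 4. Coverage at the summit was low for Prf1, at 12, 13 and 15 fragments, and 21, 28 and 36 for Nkg7. Gzmb lay at 83.1, 83.4, 73.2 and 49.6, and Gzmm at 65.8, 73.7, 45.8 and 24.9, in both cases lowest in library 4. That peak of Gzmm lay 1299 bp from the annotated start, and the peak at the start was weaker, at 2.76, 4.18, 21.6 and 13.3, with library 4 not the lowest. Gzmc had peaks only in the library or merged lists, with a boundary peak in libraries 1 to 3. Without library 4, 9 of the 12 were open.

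Among chemokines 9 of 16 (56.3%) were open, also near the share of all genes, with Ccl25 and Cxcl10, a ligand of CXCR3, the strongest, at 79.5 and 70.6 in the final list. Ccl3, Ccl4, Ccl1, Ccl5, Cxcl9, Cxcl12 and Cxcl13 were also open. Ccl4, which had no annotated start, was open through the same peak as Ccl3, which lay over the Ccl3 start. Ccl2 and Ccl19 were silent, Ccl20 and Ccl22 had peaks away from the boundary, and Xcl1 had only library or merged peaks. Ccl17 lacked its boundary peak in library 3 and Cxcl2 in library 4. Cytokines made mainly by other cells were open in 11 of 23 cases (47.8%), against 58.6% of all genes. The open ones included Il15 at 79.7, Flt3l at 73.8, Il18 at 72.4 and Il6 at 64.6. Il1b, the inflammatory cytokine of myeloid cells, was the 1 silent gene of that list. Peaks were called in its window in 6 of the other 11 libraries.

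Most transcription factors of helper fates were open at a boundary. Of 30 genes 25 (83.3%) were open at a boundary, against 58.6% of all genes, and 20 of 22 with a start had an open start, against 59.3%. They included Tbx21 and Eomes, the T-box factors of type 1 and cytotoxic fates, Stat3 and Stat6, Bcl6 and Ascl2 of follicular helper cells, Prdm1, Maf, Irf4, Batf and Myc. Gata3, the factor of type 2 cells, and Stat4, which acts under interleukin 12, had no boundary peak but an open start. Rora, which acts in interleukin 17 producing cells, and Foxp3 of regulatory T cells had 21 and 4 final peaks in their windows, none at a boundary, and no open start. The peaks of the open factors ranged widely in strength. Runx3 lay at 95.3, 93.6, 90.01 and 82.8 in libraries 1 to 4 and Stat3 at 88.8, 94.0, 83.6 and 94.0, both high throughout. Tbx21, by contrast, lay at 21.9, 11.6, 17.99 and 42.2.

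Receptor genes were mostly open. Of 30 cytokine receptors 27 were open, as were 20 of 25 chemokine receptors and homing molecules (80.0%) and 18 of 21 costimulatory and inhibitory receptors (85.7%), and none of the 3 lists held a silent gene. Over all genes 58.6% were open at a boundary and 18.3% were silent. Of the genes with an annotated start, 20 of 25, 13 of 16 and 15 of 16 in these lists had an open start, against 59.3% of all genes. Il1rl1 was open only through the peak over the start of Il18r1, and its own start was not open. The counts of the 3 lists are given side by side with no test between lists. The strongest peaks were those of Entpd1, the ectoenzyme CD39, at 99.3, 99.5, 99.0 and 99.5 in libraries 1 to 4, and of Btla, an inhibitory receptor, at 98.4, 99.4, 98.8 and 98.1. Cxcr6, a homing receptor of effector cells, lay at 98.3, 95.1, 97.2 and 94.3. All 3 peaks were within the top 6% in every library. Those of Entpd1 and Cxcr6 were at the start, whereas that of Btla lay 27168 bp from it, and the peak at the Btla start ranked lower, at 52.4, 55.3, 58.1 and 51.4. Il9r lay at 97.2, 97.9, 97.7 and 97.0, also with a peak that was not at its annotated start, where the final-list percentile was 2.70. Ifngr1, the ligand-binding chain of the interferon gamma receptor, lay at 94.1, 93.8, 94.6 and 91.2.

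Of the activation-linked receptors, Il2ra, the high-affinity chain of the interleukin 2 receptor (CD25), Cd69, Icos, Ctla4, Pdcd1 (PD-1), Lag3, Havcr2, Tigit, Tnfrsf4 (OX40) and Tnfrsf18 (GITR) were open. Tnfrsf9, the costimulatory receptor 4-1BB, had 10 final peaks in its window and an open start, but no final peak at the ends of its bounds. The boundary peaks of Il5ra and Ccr2 were not called in library 1, and that of Ccr3 was called in neither library 1 nor library 4. In library 4 the peak that overlapped the one of Ccr2 did not itself reach within 1 kb of the gene. The start of Ccr3 was open through another peak. Il1r1, Csf3r, Ccr1, Ccr4, Itgae, Cd160 and Cd244a had final peaks in the window and none at a boundary, with the starts of Ccr4 and Cd160 open.

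Genes of growth metabolism were open almost without exception. Over 5 lists of 105 genes (glycolysis, amino acid and one-carbon metabolism, mitochondrial fuel oxidation, lipid and sterol synthesis, and the pentose phosphate pathway with nucleotide synthesis), 100 (95.2%) were open at a boundary and none was silent. Of the 87 with an annotated start, 86 (98.9%) had an open start. Over all genes 58.6% were open at a boundary, 18.3% were silent and 59.3% of those with a start had an open start. Members of the 5 lists without an open boundary included Hk1, Ldha, Idh2 and Fdft1, and the starts of Hk1, Ldha and Idh2 were open. In Ldha, lactate dehydrogenase A, the boundary peak was called in libraries 1 to 3 only.

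The nucleotide list was open in 19 of 19 genes. Impdh2 had the strongest peak, at 99.7, 99.9, 99.5 and 99.5 in libraries 1 to 4, with a fold enrichment of 17.5 in the final list. Dhodh, a step of pyrimidine synthesis, followed at 99.6, 99.2, 96.8 and 98.7. Rrm1, the large subunit of ribonucleotide reductase, lay at 96.5, 98.5, 95.02 and 91.0, and Cad, which opens pyrimidine synthesis, at 90.2, 97.2, 95.5 and 96.1. These 4 genes were in the top 10% of every library.

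In amino acid and one-carbon metabolism 28 of 29 genes were open. Pycr1, of proline synthesis, lay at 98.5, 96.9, 99.3 and 99.6, and Shmt1, which passes carbon from serine to folate, at 98.8, 98.9, 96.7 and 96.2. Gpt2, Srm, Mthfd1 and Psph followed at 95.8, 95.6, 95.4 and 95.3 in the final list. Transporters that feed the pathway, Slc7a5 with its partner Slc3a2, Slc1a5 and Slc38a2, were open as well. In mitochondrial fuel oxidation 19 of 20 were open, led by Pdhb of pyruvate dehydrogenase at 98.7, 96.3, 98.2 and 98.2, and Sdha of succinate dehydrogenase at 94.96, 97.5, 97.3 and 95.4. In lipid and sterol synthesis 14 of 15 were open, led by Dhcr7, the last step to cholesterol, at 97.7, 99.2, 96.6 and 97.6.

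Glycolysis genes were open in 20 of 22 cases, with weaker peaks. Their median boundary percentile in the final list was 55.2, against 82.5 for mitochondrial fuel oxidation, 78.7 for lipid and sterol synthesis, 78.3 for nucleotide synthesis and 70.8 for amino acids. Pdk1, the kinase that restrains pyruvate dehydrogenase, and Ldhb led the list. Pdk1 lay at 95.1, 96.7, 94.1 and 95.4 and Ldhb at 97.0, 97.1, 93.9 and 96.1, so that Pdk1 ranked above Ldhb in library 3 and in the final list and below it in libraries 1, 2 and 4. Pgk1 lay at 94.5, 88.6, 86.6 and 92.4. The glucose transporters Slc2a1 and Slc2a3, Hk2, Pkm and Gapdh were open with ranks below these.

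Isoforms of the same pathways restricted to certain tissues, such as liver, muscle, testis or brain, served as a contrast. Of 21 such genes 9 (42.9%) were open at a boundary, against 58.6% of all genes. Of the 12 with an annotated start only 1 had an open start, against 59.3% of all: Hk3, a hexokinase of blood cells, at 80.5, 81.6, 85.1 and 76.5. Gapdhs, the sperm form of Gapdh, had a strong boundary peak at 93.7, 93.2, 94.4 and 95.8 that was not at its start. Pck1 was the same in kind, at 83.4, 64.4, 65.2 and 56.4. Mat1a, of liver methionine metabolism, was silent, and Arg1, G6pc and Tat had only library or merged peaks. The lists also differed in CpG: 11 of the 12 isoform promoters had 7 or fewer, against 6 of 87 in the other metabolic lists. Their medians were 4 and 21 CpG. The part of CpG content in the contrast was not tested.

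Peak number differed widely between genes. The median protein-coding gene had 2 final peaks in its bounds and 10 kb around, 613 genes had 10 or more and 76 had 20 or more. Foxp1, a factor of T cell quiescence, had 56, Bach2, a repressor of effector fates, 39, Akap13 36, Wwox 36, Arhgap26 34, Inpp4b 33 and Pde4d 33. Itpr1, a calcium channel of antigen receptor signalling, Rere and Lpp each had 32, Atxn1 and Nfia 31, and Sfi1, Arhgef3 and Sox5 30. In the libraries Foxp1 had 64, 74, 64 and 62 peaks and Bach2 46, 54, 53 and 44. Peak number grew with gene length, with a Spearman rho of 0.487 across 21883 genes, which are not independent.

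By density, among genes with 10 or more peaks, Sfi1 led with 32.8 peaks per 100 kb, followed by Tnfrsf9 with 21.8. Cytip, a regulator of lymphocyte adhesion, had 20.8, Tnfrsf1b, the receptor TNFR2, 20.2, Cd6, a T cell surface receptor, 19.8, and Il6ra, the interleukin 6 receptor, 18.8. Zfp217, Akna, Sema4b and Cass4 had 16.6 to 17.5. Tnfrsf9 had 11, 10, 9 and 11 peaks in libraries 1 to 4 and Cd6 11, 15, 14 and 11. Peaks in the window of Sfi1 reached a fold enrichment of 10.96, and its boundary peak 3.74. No control DNA was used in peak calling, so extra copies of a locus and accessibility cannot be told apart at any of these loci.

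The peaks of highest fold enrichment were of another kind than the gene starts described so far. The 15 highest ran from 23.7 to 42.9, were called in all 4 libraries, and had a median width of 386 bp against 787 bp for all final peaks. Only 3 of the 15 were boundary peaks and 2 held a start. All 11 other libraries also called 14 of the 15 (93.3%), against 38.9% of all final peaks. The nearest protein-coding genes were Col19a1, Gm15319, Zc3h7a, Lars2, Pex2, Mc2r, Camk1d, Gphn, Filip1l, Gm19802, Gm52481, Gm14410, Chl1, Tmem123 and 2310009B15Rik, none of them on the gene lists used here. The strongest, at chr1:24612659-24613189, lay 24737 bp outside Col19a1 and had a coverage of 3333, 3123, 3334 and 3429 fragments at its summit in libraries 1 to 4. The next, at chr8:20424750-20425093, had 162, 192, 182 and 123. Without control DNA, extra copies of a locus, reads from similar sequences and accessibility cannot be told apart at these 15 peaks. Their rank is therefore not shown to be one of openness.

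Across the whole list strength and constancy went together. From the weakest to the strongest 10% of final peaks, the share called in all 4 libraries went from 46.8% to 99.9%, the share at a boundary from 17.1% to 44.4%, and the share also called in all 11 other libraries from 13.7% to 74.1%. Among peaks holding a start, in a ranking made after the values were seen, the 15 strongest included the zinc finger genes Zfp458 and Zfp729a and also H2-K1, a class I histocompatibility gene, with a fold enrichment of 23.7, Pnp, of purine salvage, with 22.2, and Ddost, of protein glycosylation in the endoplasmic reticulum, with 20.7. H2-K1 has close relatives in the genome, and reads shared with them make its value uncertain. Gm14410, Gm14325 and Gm14326, all on chromosome 2, were also among the 15. The limit from the lack of control DNA holds for all 15.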

How the data were processed

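Trim Galore 0.5.0, Bowtie2 2.2.9 with the build mm10, MACS2 and HOMER 4.10.4 are listed in the submitters' processing notes, with no order. Per the file headers, MACS2 2.1.1.20160309 was run on paired fragments without a control at a q cutoff of 0.05, keeping 1 fragment per position, for each library and for the 4 merged; library 4 came from an alignment numbered 5. The authors deposited, for each peak, fragment coverage at the summit (a signal), fold enrichment (a ratio) over local background and −log10 p and q values, and in the final list an integer score; none was normalised between libraries here. How the final list was selected is not stated in the sources used.

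Final peaks were matched to library peaks by an overlap of at least 1 bp, and to the bounds of 21883 protein-coding genes and RefSeq starts (GRCm38.p6), with Python 3.11.15, numpy 2.4.6 and pandas 2.3.3. The interval code was checked on simulated data. The state of 1 group is described, so no test was run. Values are named for up to 6 open members of a list with the highest boundary fold enrichment and for members that differ between libraries, for the 15 genes with most peaks, the 10 densest and the genes nearest the 15 strongest peaks; any further gene was chosen after its values were seen, to show the range of its list. The members and lists were chosen with earlier results of these data known. Depth was 24668612 to 27557588 fragments per library. Alternatives were the merged list, a −log10 q of at least 5, autosomes only, other distances, a stricter overlap, and leaving out each library. Annotated starts in place of both ends, and the lists without library 4, were added after seeing the data. A few members of the lists are counted but not reported by name here.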

Additional observations from a re-analysis of the deposited data

Results flagged for a closer look

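Of 44 values examined over the 4 libraries, the number of fragments entering in 2 units, 10 had 1 library far from the other 3. Chance gives about 1 in 20 for continuous values, but this rate does not hold where the other 3 libraries are tied, as in 8 of the 10: any difference then stands out. Library 4 gave 4 of the wider differences: a redundant rate of 0.17 against 0.15, a median fold enrichment of 5.57 against 6.31 to 6.38, 91.5% of final peaks called against 96.5% to 97.4%, and 7 cytotoxic genes with a boundary peak against 10. The other 6 were differences of 1 gene with a boundary peak, from 3 libraries with equal counts. Cytokines made by other cell types had 11 in library 1 against 12, cytokine receptors 29 in library 3 against 28, and costimulatory and inhibitory receptors 19 in library 2 against 18. T cell identity had 17 in library 3 against 18, myeloid and dendritic cells 7 in library 2 against 6, and hepatocytes 2 in library 4 against 1.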

How the results depend on the processing

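Of 56 main values recomputed under an alternative, 42 stayed within their limits and 14 moved, as did 13 of 88 counts for single lists. The merged list held 92563 peaks of 550 bp median width, of which 49.3% were called in all 4 libraries and 17.3% lay at a boundary. Requiring a library peak to cover at least a fraction of 0.5 of the final peak left 54.3% called in all 4. Leaving out 1 library in turn gave 84.8% to 90.7% called in all of the others. The boundary share was 21.7% at 0.5 kb and 36.6% at 5 kb. With 50 kb in place of 10 kb around a gene, silent genes fell from 4009 to 2553, silent effector genes from 3 to 0, silent metabolic genes from 1 to 0 and silent markers of other cell types from 17 to 5. Genes open at a boundary ranged from 12903 to 13026 with 1 library left out. No paired analysis was possible because the group is described alone and no result comes from a test. Depth limits the weak peaks, and a peak below the caller's threshold in 1 library may be present there.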
